A study of Danio rerio with 15 samples.

Results

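Genes for neurotransmitter receptors were examined in whole brains of adult zebrafish fed extra selenium or a control diet. They were chosen by gene symbol alone, as the genes for ionotropic and metabotropic glutamate, GABA, glycine, acetylcholine, serotonin, dopamine, noradrenaline and histamine receptors. The choice gave 29 receptor genes, read by 32 probe sets, out of 8793 genes named on the array and 15502 probe sets tested. One more symbol that matched, grinab, names an NMDA receptor-associated membrane protein and not a receptor, and it is described apart. A probe set with several symbols, which match serine peptidases by their letters alone, was not used.

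RNA was hybridised to Affymetrix arrays, 1 fish per array, from 15 fish of the strain labelled Transgenic Mosaic 1, all 1 year old and sexually mature. The groups were 4 females on selenium, 3 females on the control diet, 4 males on selenium and 4 males on the control diet. Sodium selenite brought the supplemented diet to 5.6 ppm selenium, the control diet held 1.4 ppm, and each was fed for 14 days. The design text gives both sexes in equal number on each diet, so 1 more control female belongs to the design and is not analysed here. The labels do not say what the strain's transgene is.

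Transmitter receptors fall into a pair of broad kinds. Ligand-gated channels open within milliseconds of binding glutamate, GABA, glycine or acetylcholine and pass the ions that excite or inhibit a neuron. G protein-coupled receptors, which include GABA-B, muscarinic, dopamine, adrenergic and most serotonin receptors, act more slowly through second messengers and often sit on the releasing terminal, where they limit further release. Because zebrafish keep many genes from a duplication of the teleost genome, several receptors are encoded by a and b copies.

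By the symbols given to its probe sets, the array covered these receptors thinly. Of 15502 tested probe sets 4572 had no symbol and 135 had several, and any receptor among them is not counted here. Against the RefSeq annotation of the GRCz12tu assembly, in which the same symbols name 163 receptor genes, it held 2 of 8 AMPA genes, 2 of 7 kainate genes, 1 of 13 NMDA genes, 1 of 19 GABA-A genes and 1 of 22 serotonin genes. Glycine receptors, with 5 of 7 genes, were the most fully covered class. The array also held 5 of 23 nicotinic, 5 of 15 adrenergic, 4 of 12 dopamine, 1 of 10 muscarinic, 1 of 4 GABA rho and 1 of 3 GABA-B genes. No probe set used was named for a delta, metabotropic glutamate or histamine receptor gene. A statement on a class therefore covers only the copies named here.

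Array medians lay between 7.24 and 7.35 log2 units. The mean over 15 measured neuronal marker genes lay at 11.75 or above in each of the 15 fish, so that the labelled tissue carried its defining markers at high signal. Marker genes of skeletal muscle and of retina and lens differed between fish. The muscle mean reached 8.98 in male 1 and 7.09 in male 3 on selenium, against 5.64 to 6.57 in the other 13 fish. For retina and lens it reached 7.53 in male 2 and 7.01 in male 4 on selenium, against 4.60 to 6.11 in the others. The 3′ minus 5′ signal of the gapdh control probe sets, a measure of RNA integrity and labelling, was 1.33 to 1.84 in females on selenium, 0.97 to 1.61 in control females, 0.66 to 1.17 in males on selenium and 0.89 to 1.26 in control males. All 4 females on selenium thus lay above all 4 males on selenium in that measure.

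Averaged over the 29 receptor genes, expression differed little across the groups. Females minus males was -0.09 log2 units on the control diet and -0.09 on selenium, beside a spread between fish of 0.09. These differences carry no test. The mean was 6.72 ± 0.06 log2 units in females on selenium (SD, n = 4), 6.69 ± 0.07 in control females (n = 3), 6.82 ± 0.14 in males on selenium (n = 4) and 6.78 ± 0.06 in control males (n = 4). The spread was widest in males on selenium, where a single fish, male 2, stood at 7.01 and the others at 6.71 to 6.82. Signal on these arrays depends on the probes as well as on the RNA, so genes are not ranked against each other. Most receptor probe sets were dim: 22 of 29 lay under the array-wide median of 7.29, and 4 lay under the lower quartile of 5.14.

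By class, GABA-B and dopamine means stood apart between the sexes on selenium, and AMPA means lay lower in females with overlap. The AMPA mean of gria2a and gria2b was 7.07 ± 0.32 in females on selenium (SD, n = 4) and 7.32 ± 0.33 in control females (n = 3), against 7.58 ± 0.25 in males on selenium (n = 4) and 7.58 ± 0.17 in control males (n = 4). For GABA-B, read by gabbr1a alone, the values were 8.11 ± 0.26, 8.20 ± 0.14, 8.70 ± 0.20 and 8.49 ± 0.20 in the same order of groups. Dopamine receptors, 4 genes of the D2-like kind, averaged 6.05 ± 0.14 in females on selenium, 6.13 ± 0.10 in control females, 6.33 ± 0.14 in males on selenium and 6.16 ± 0.08 in control males. Every female on selenium (5.93 to 6.20) lay under every male on selenium (6.23 to 6.53), with 3 genes lower and 1 higher in females. That difference lay in drd2a (-0.75) and drd3 (-0.37) and hardly in drd2l (-0.04) and drd2b (0.03). In kainate genes females on selenium were the higher sex on average, with 9.13 ± 0.13, against 8.70 ± 0.32 in males on selenium. These groups overlapped, and the difference lay in grik6 (0.85) and hardly in grik1a (0.02). Glycine receptors were level: their 4 group means lay between 6.53 and 6.58. These class means carry no test.

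**Figure D1:**
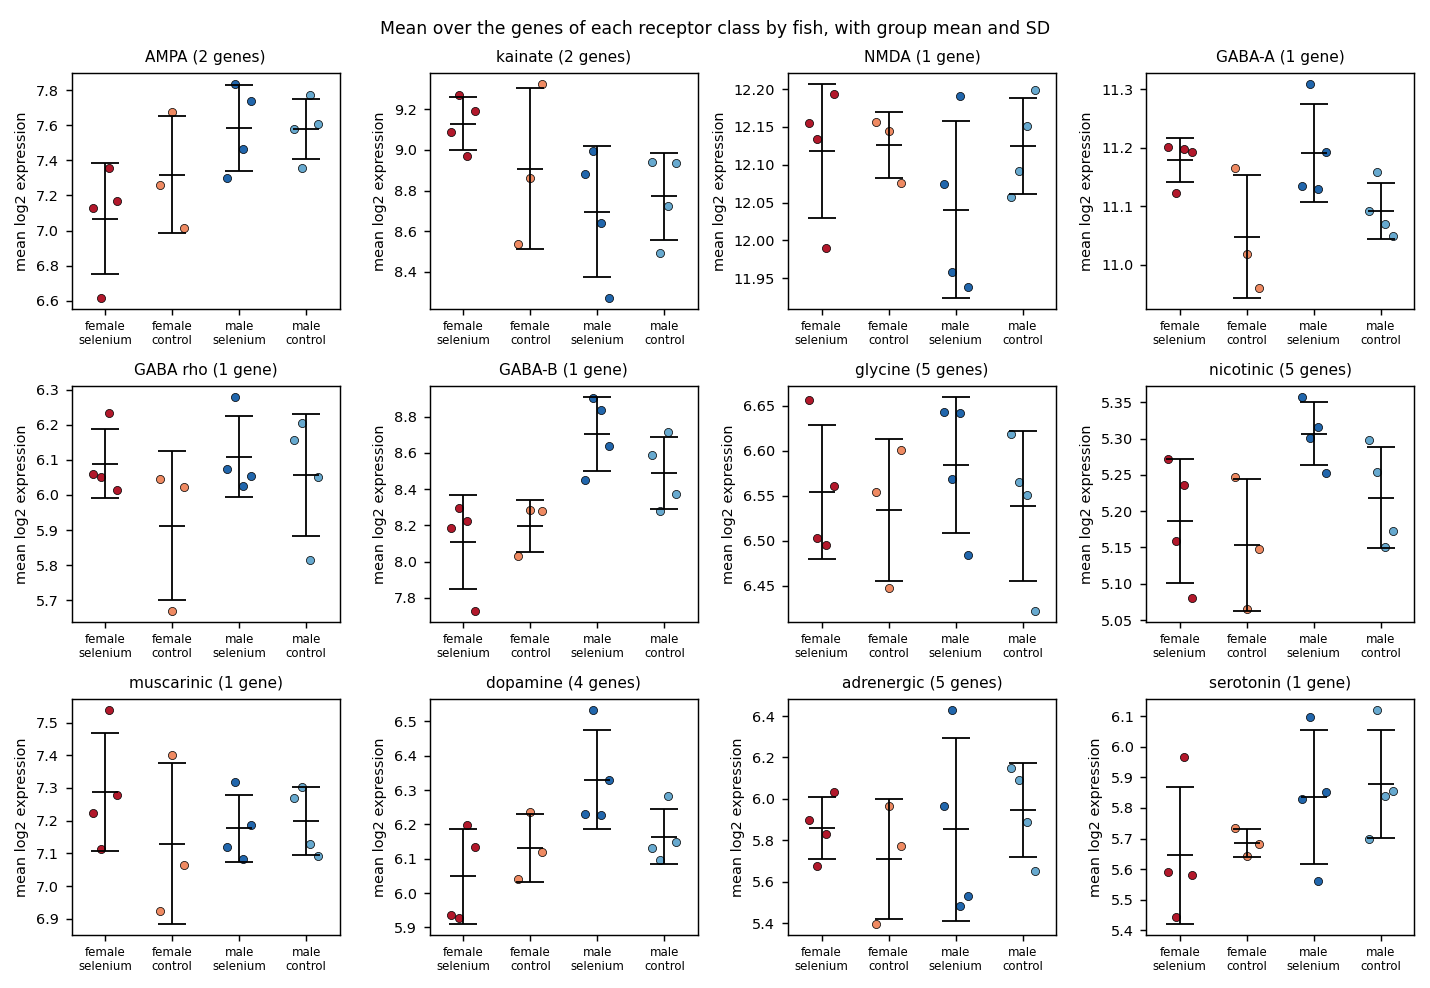
Mean log2 expression over the measured genes of each receptor class, 1 point per fish, with group means and SD as bars, for females on selenium, control females, males on selenium and control males. GABA-B and dopamine means lie lower in every female than in every male on selenium, while AMPA means overlap between them. The dopamine difference lies in drd2a and drd3. The adrenergic class spreads most in males on selenium (SD 0.44), where adra2b has an SD of 1.58 and its other genes 0.15 to 0.34.

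The sex difference on the selenium diet held the receptor genes that stood furthest apart. In females on selenium, drd2a, gabbr1a and gria2b were lower in every fish than in every male on selenium, and grik6 was higher in every fish. None of the 29 genes passed the adjusted threshold by its brightest probe set, against 1.05% of all probe sets (162 of 15502, of which females had 55 at a higher and 107 at a lower level). The smallest adjusted p was 0.0540 (limma, Benjamini-Hochberg over all probe sets). By a second, dimmer probe set grin1a did pass. P-values here measure the spread between single fish, and in whole brain fewer cells of a type and less RNA per cell cannot be told apart.

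The gene with the smallest p was drd2a, a D2 dopamine receptor that inhibits adenylyl cyclase and acts on both the releasing and the receiving side of dopamine synapses. Its values were 6.39, 6.01, 6.59 and 6.75 in females on selenium, against 7.12, 7.24, 7.07 and 7.30 in males on selenium. No female on selenium reached any male on selenium. The log2 difference was -0.75 ± 0.17 (SE, n = 4 and 4, 95% interval -1.12 to -0.38, limma adjusted p = 0.0540). Without male 2, the fish with the highest mean over receptor genes, it was -0.73 (adjusted p = 0.140). On the control diet the sexes overlapped, with 6.40, 6.83 and 6.83 in females and 6.63, 6.28, 7.03 and 6.81 in males.

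The GABA-B1 gene gabbr1a encodes the subunit that binds GABA in the metabotropic GABA receptor. It read 8.18, 8.30, 8.22 and 7.73 in females on selenium, against 8.45, 8.90, 8.83 and 8.64 in males on selenium. The groups did not overlap. The difference was -0.60 ± 0.14 log2 units (SE, n = 4 and 4, 95% interval -0.90 to -0.29), with an adjusted limma p of 0.0566 and, without male 2, a difference of -0.53 (adjusted p = 0.153). Control females (8.03, 8.28 and 8.28) also lay low, against control males at 8.59, 8.28, 8.72 and 8.37, where 1 male matched the females.

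AMPA receptors carry fast excitation, and the GluA2 subunit encoded by gria2a and gria2b limits their calcium entry in mammals. For gria2b the values were 8.28, 7.66, 8.49 and 7.93 in females on selenium, against 8.53, 9.01, 8.75 and 8.96 in males on selenium. The highest female lay just under the lowest male. The difference was -0.72 ± 0.20 (SE, n = 4 and 4, 95% interval -1.15 to -0.30, limma adjusted p = 0.0849), and without male 2 it was -0.66 (adjusted p = 0.204). Its copy gria2a overlapped between the sexes, at 5.98, 5.57, 6.22 and 6.41 in females on selenium and 6.06, 6.66, 6.18 and 6.51 in males on selenium, a difference of -0.31 ± 0.18 (limma adjusted p = 0.395).

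NMDA receptors all contain the GluN1 subunit, encoded here by grin1a, and its probe sets disagreed. The dimmer one read 7.45, 6.92, 7.47 and 6.76 in females on selenium, against 7.76, 8.22, 7.78 and 7.95 in males on selenium. Every female lay under every male, and this probe set was lower by the test, at -0.78 ± 0.17 log2 units (SE, n = 4 and 4, limma adjusted p = 0.0459). The brightest probe set of the gene read 12.16, 12.13, 11.99 and 12.19 in females on selenium and 12.07, 11.96, 12.19 and 11.94 in males on selenium. There the sexes overlapped, and the difference was 0.08 ± 0.07 (adjusted p = 0.617). The call of the dimmer probe set was held without female 3 on selenium or without control female 3, and was lost without any other single fish (adjusted p 0.0320 to 0.130 over the 15 fits).

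**Figure D2:**
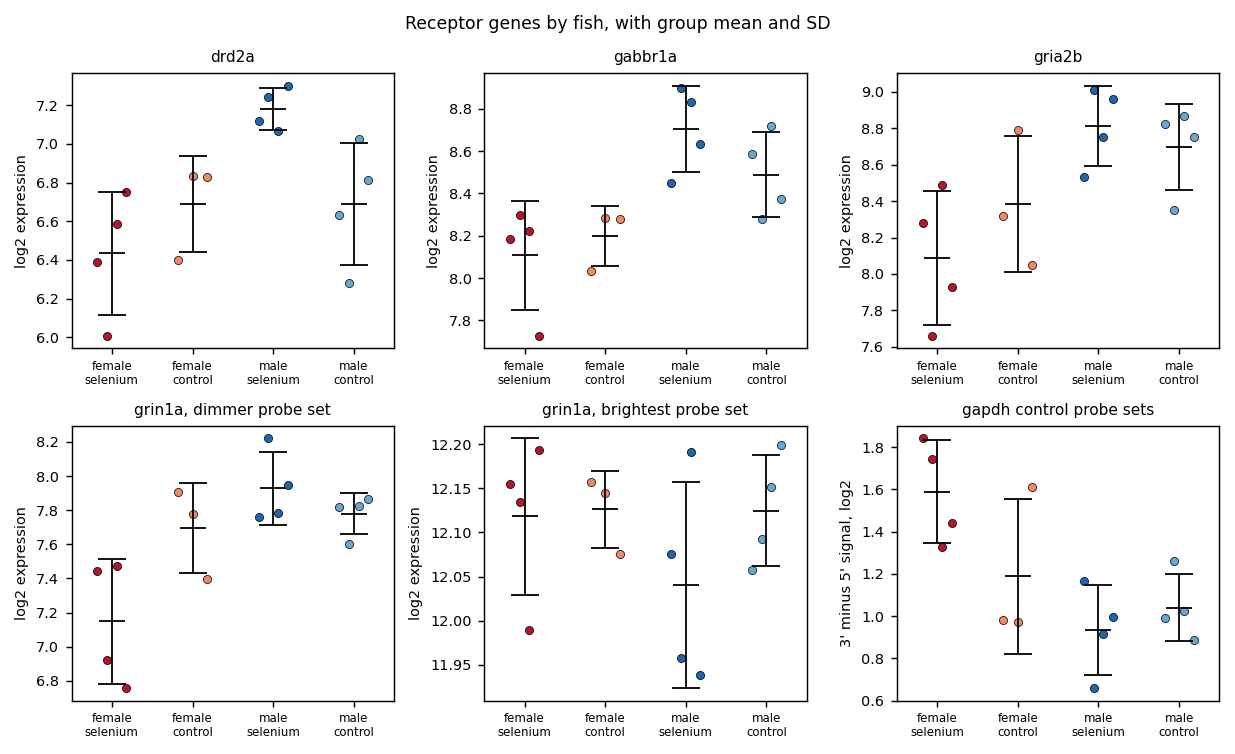
Log2 expression of drd2a, gabbr1a, gria2b and both probe sets of grin1a, and the 3′ minus 5′ difference of the gapdh control probe sets, 1 point per fish, with group mean and SD. Females on selenium lie below males on selenium in drd2a, gabbr1a, gria2b and the dimmer grin1a probe set, overlap them in the brightest grin1a probe set, and lie above them in the gapdh measure.

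Other measures moved with this sex difference, and their part in it was not tested. Fits that include them or leave arrays out are given as values. With the gapdh 3′ minus 5′ difference as a covariate the limma values were -0.54 for drd2a (adjusted p = 0.582), -0.57 for gabbr1a (0.497), -0.21 for gria2b (0.841) and -0.43 for the dimmer grin1a probe set (0.619). For gria2b the value with its SE was -0.72 ± 0.20 without the covariate and -0.21 ± 0.24 with it. For drd2a it was -0.75 ± 0.17 and -0.54 ± 0.26. Because the gapdh measure did not overlap between these groups, this fit cannot part it from the sex difference. Without the 4 arrays of highest retina signal, which are males 2 and 4 and female 2 on selenium and control female 2, the values were -0.52, -0.60, -0.41 and -0.54 in the same order of genes (adjusted p 0.317 to 0.464). With the muscle and retina means as covariates they were -0.95, -0.67, -0.89 and -0.81 (adjusted p 0.476 to 0.507). All 4 stayed negative in each fit. The 4 arrays of highest retina signal also had the highest means of 5 measured pineal organ genes. Those means were 6.61 to 7.60, against 4.53 to 5.47 in the other fish. The genes crx and gngt1 are in both lists, and the part of either tissue was not tested.

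Markers of brain cell types also differed between these 2 groups. The mean of 5 measured oligodendrocyte and myelin genes was 9.79 to 9.97 in females on selenium, against 9.99 to 10.17 in males on selenium, and all 5 genes were lower in females. The mean of 12 radial glia and astrocyte genes was 10.78 to 10.96, against 10.67 to 10.76, with 9 of 12 genes higher in females. The mean of 10 microglia and macrophage genes was 7.56 to 8.46, against 7.38 to 7.55, without overlap, with 8 of 10 genes higher in females and a median difference of 0.36. The means of neuronal markers overlapped, at 11.75 to 11.83 against 11.81 to 11.91, with 9 of 15 genes lower in females. Of these 15 genes 4 (26.7%) had an unadjusted p under 0.05, beside 18.6% of all probe sets. They were atp1a3b at -0.45 (limma adjusted p = 0.0542), elavl3 at -0.33, sncb at -0.27 and snap25b at 0.15. The part of these cell types in the receptor values was not tested.

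Next in order on selenium came members that lay further from the threshold. The dopamine receptor drd3, a second D2-like receptor, read 6.42, 6.77, 6.73 and 6.25 in females on selenium, against 6.81, 7.20, 6.74 and 6.88 in males on selenium. Of the 4 females 3 lay under the lowest male, and the difference was -0.37 ± 0.14 (limma adjusted p = 0.197). For glra4a, a glycine receptor alpha subunit, the brightest probe set gave -0.18 and the dimmer one -0.51 ± 0.19 (adjusted p = 0.172). With the gapdh measure as a covariate drd3 stood at -0.13 and the dimmer glra4a probe set turned to 0.08, while the brightest glra4a probe set stood at -0.40 (adjusted p 0.564 to 0.938). With the muscle and retina means as covariates drd3 stood at -0.06 (adjusted p = 0.942). The remaining members of smallest p were chrne at -0.36, adra2c at -0.31, glrba at -0.26, chrna1 at -0.24 and glra4b at 0.22, with adjusted p 0.284 to 0.367.

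Read as a group, the receptor genes stood lower in females in 18 of 29 cases and higher in 11 (37.9%), where 53.5% of all probe sets were higher. With the dimmest 25% of probe sets left out that background share was 50.8%. The median difference was -0.02, beside a median of 0.01 over all probe sets. The mean difference over the 29 genes was -0.09, as on the control diet. An unadjusted p under 0.05 was reached by 5 of 29 genes (17.2%), beside 18.6% of all probe sets. In 4 of 29 the sexes did not overlap (13.8%), beside 10.2% of all probe sets. The share of small p-values and the share without overlap both lie near those of the whole array.

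On the control diet no receptor gene differed between the sexes by the adjusted test, and neither did any probe set of the array (0% called). An unadjusted p under 0.05 was reached by 2 of 29 genes (6.90%), beside 5.74% of all probe sets, and the smallest adjusted p was 0.819. The signs leaned one way: females were lower in 22 of 29 genes, with a median of -0.09. Over all probe sets 47.4% were higher in females and the median was -0.01. With the dimmest 25% of probe sets left out that share was 51.1%, so dim probe sets were more often lower in control females. Most receptor probe sets were dim too, and the share among probe sets of like signal was not computed. Neuronal markers also leaned lower, with 14 of 15 lower in control females (median -0.07), as did all 5 oligodendrocyte and myelin genes (median -0.08). Radial glia and astrocyte genes (7 of 12) and microglia and macrophage genes (7 of 10) were mostly higher. The part of these cell types was not tested. The groups did not overlap in 3 genes (10.3%, beside 7.66% of all probe sets), each lower in females.

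Those 3 genes were adra2db and adra2da, the zebrafish alpha-2D adrenergic receptors, which answer noradrenaline by inhibiting release, and the D2 copy drd2b. In control females adra2db read 5.16, 5.11 and 5.15, against 5.65, 5.58, 5.34 and 5.47 in control males. The 3 females lay close together and under every male. The difference was -0.37 ± 0.16 (SE, n = 3 and 4, 95% interval -0.72 to -0.02, limma adjusted p = 0.850). The smallest p in this comparison belonged to grik1a, a GluK1 kainate receptor subunit, at 8.03, 8.06 and 8.17 in control females, against 7.72, 7.87, 8.08 and 7.71 in control males. One control male lay among the females, and the difference was 0.24 ± 0.09 (adjusted p = 0.819).

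For adra2da and drd2b the differences on the control diet were -0.14 ± 0.13 and -0.16 ± 0.10 (limma adjusted p = 0.913 and 0.883). Further values also lay far from the threshold. They were -0.23 ± 0.11 for adra2a, -0.29 ± 0.16 for adra2c, -0.20 ± 0.10 for the glycine receptor gene glra1, -0.29 ± 0.15 for gabbr1a and -0.31 ± 0.21 for gria2b. All 5 adrenergic genes and all 5 nicotinic genes were lower in control females by sign. In chrne (-0.0022 ± 0.18) and adra2b (-0.14 ± 0.84) the value was far smaller than its error. Their class means were 5.71 ± 0.29 in control females and 5.95 ± 0.23 in control males for adrenergic genes, and 5.15 ± 0.09 against 5.22 ± 0.07 for nicotinic genes. Both pairs overlap within their SD. In the adrenergic class adra2b alone had an SD of 1.40 in control females and 1.07 in control males. The median 95% interval over the 29 genes was plus or minus 0.30 log2 units.

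**Figure D3:**
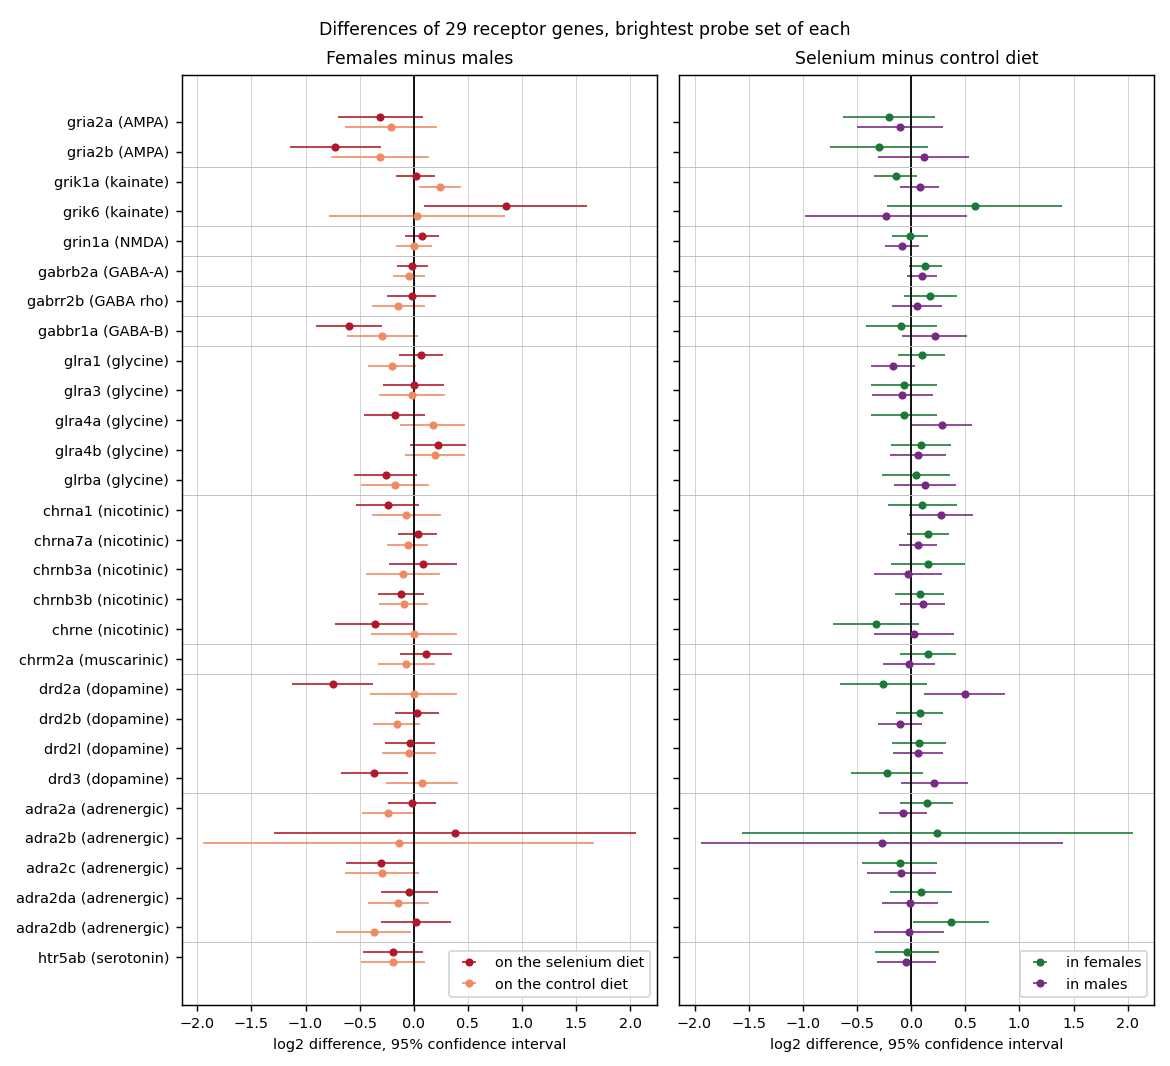
Log2 differences of the 29 receptor genes by brightest probe set, with 95% confidence intervals from limma: females minus males on selenium and on the control diet (left), and selenium minus control in females and in males (right). Most intervals cross 0; drd2a, gabbr1a and gria2b lie furthest below 0 for the sexes on selenium, and adra2b has the widest interval in each comparison.

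The diet comparison in females asked whether 14 days of selenite moved these genes. No receptor gene passed the adjusted test, nor did any probe set of the array (0% called). One of 29 genes (3.45%) had an unadjusted p under 0.05, beside 8.27% of all probe sets, and the smallest adjusted p among the genes was 0.587. Selenium females were higher in 17 genes and lower in 12, with a median of 0.08 and a range of -0.33 to 0.59. Over all probe sets 51.7% were higher, and the median was 0.01. With the dimmest 25% of probe sets left out 46.2% were higher, so dim probe sets were more often higher in selenium females. The share among probe sets as dim as the receptors was not computed.

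The gene of smallest p was adra2db, the alpha-2D receptor gene that was also lower in control females than in control males without overlap. It read 5.40, 5.31, 5.83 and 5.50 in females on selenium, against 5.16, 5.11 and 5.15 in control females. Every female on selenium lay above every control female. The difference was 0.37 ± 0.16 (SE, n = 4 and 3, 95% interval 0.02 to 0.72, limma adjusted p = 0.587). Because the same 3 control females enter both comparisons of adra2db, these values are not independent. The other gene without overlap was grik1a, at 8.03, 7.94, 7.87 and 7.93 in females on selenium and 8.03, 8.06 and 8.17 in control females, where only the unrounded values keep the groups apart, a difference of -0.14 ± 0.09. These 2 genes are 6.90% of the 29, beside 6.95% of all probe sets. The muscle list mean also lay higher in every female on selenium (6.09 to 6.40) than in control females (5.64 to 5.96), and its part was not tested.

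Among the others, gabrb2a, a beta subunit of the GABA-A channel, stood at 0.13 ± 0.07 in selenium over control females, chrna7a at 0.16 ± 0.09 and chrne at -0.33 ± 0.18. The last 2 encode the homomeric alpha7 nicotinic receptor and the epsilon subunit of the adult muscle receptor. The dimmer probe sets of grin1a and glra4a gave -0.54 ± 0.18 and -0.47 ± 0.20 (adjusted p = 0.501 and 0.581), where the brightest ones gave -0.01 and -0.07. For both genes the value thus depended on the probe set. With the gapdh 3′ minus 5′ difference as a covariate the dimmer probe sets gave -0.33 and -0.11 (limma adjusted p = 0.647 and 0.904). Here too the median interval was plus or minus 0.30, without adjustment for the number of probe sets. Larger values were not called either, as for adra2db at 0.37 and grik6 at 0.59 (limma adjusted p = 0.587 and 0.697). Effects of the diet in females above 0.30 could therefore also be missed with these fish.

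In males the diet comparison gave no called gene either, and none on the whole array (0% called). One of 29 genes (3.45%) had an unadjusted p under 0.05, beside 5.23% of all probe sets. The smallest adjusted p among the 29 was 0.937. Males on selenium were higher in 15 genes and lower in 14, with a median of 0.03, beside a median of -0.01 over all probe sets, of which 45.9% were higher.

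The gene of smallest p was again drd2a. The 4 males on selenium listed above, at 7.07 to 7.30, lay over the 4 control males, at 6.28 to 7.03. The difference was 0.49 ± 0.17 log2 units (SE, n = 4 and 4, 95% interval 0.12 to 0.87, limma adjusted p = 0.937). Without male 2 on selenium it was 0.47. The males on selenium enter this value and the sex difference on selenium alike, so the second is no separate support of the first. Selenium males also lay over all control males in glra4a by its brightest probe set, at 7.15, 7.07, 7.18 and 7.00, against 6.81, 6.84, 6.94 and 6.69. That difference was 0.28 ± 0.13 (adjusted p = 0.937), and the dimmer probe set overlapped. These 2 genes without overlap are 6.90% of the 29, beside 4.1% of all probe sets. Of the 33 measured retina and lens genes 31 were higher in males on selenium than in control males, with a median of 1.14. Their mean was high in males 2 and 4 on selenium only (7.53 and 7.01). Males 1 and 3 on selenium, at 4.91 and 4.71, lay among the control males (4.60 to 5.27). Without the 4 arrays of highest retina signal, drd2a stood at 0.41 (limma adjusted p = 0.999).

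The change of the sex difference with diet was tested as an interaction. No receptor gene passed, and no probe set of the array did (0% called). One of 29 genes had an unadjusted p under 0.05 (3.45%, beside 8.37% of all probe sets). That gene was drd2a, whose female minus male difference was -0.75 on selenium and 0.00 on the control diet, a change of -0.75 ± 0.26 (95% interval -1.30 to -0.20, limma adjusted p = 0.545). The same fit gave -0.69 ± 0.25 for the dimmer grin1a probe set and -0.44 ± 0.21 for drd3 (adjusted p = 0.551 and 0.600), values short of the threshold. It was therefore not shown for any receptor gene that the sex difference depended on the diet. The median interval of such a change was plus or minus 0.41.

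Receptor genes also varied between fish of the same group. The median range over the 15 fish was 0.69 log2 units, beside 0.64 over all probe sets, and 6 of 29 genes (gria2a, gria2b, gabbr1a, drd2a, grik6 and adra2b) ranged over more than 1 log2 unit, as did 19.6% of all probe sets. The widest range belonged to adra2b, an alpha-2B adrenergic receptor gene, whose levels split into separate clusters. Its brightest probe set read 7.76, 7.19, 6.25 and 7.99 in females on selenium, 5.48, 8.13 and 7.57 in control females, 8.15, 8.42, 5.60 and 5.52 in males on selenium, and 8.02, 7.84, 7.24 and 5.67 in control males. A cluster of 4 fish lay at 5.48 to 5.67, 1 female on selenium at 6.25 and the other 10 at 7.19 to 8.42. The low fish came from 3 of the 4 groups. The second probe set of adra2b put the same 4 fish lowest, at 5.48 to 5.83, and the 4 group means of the brightest probe set, 6.92 to 7.30, lay within 1 SD of each other.

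The kainate receptor gene grik6 followed in a pattern of its own. It read 10.15, 10.60, 10.07 and 10.45 in females on selenium, 9.04, 9.66 and 10.48 in control females, 9.91, 10.02, 9.28 and 8.67 in males on selenium, and 10.16, 9.11, 9.36 and 10.16 in control males. All 4 females on selenium lay over every male on selenium. They overlapped both control groups, in which 1 female and 2 males reached their range. The sex difference on selenium was 0.85 ± 0.35 (SE, n = 4 and 4, limma adjusted p = 0.214), and the diet difference in females was 0.59 ± 0.38 (adjusted p = 0.697).

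**Figure D4:**
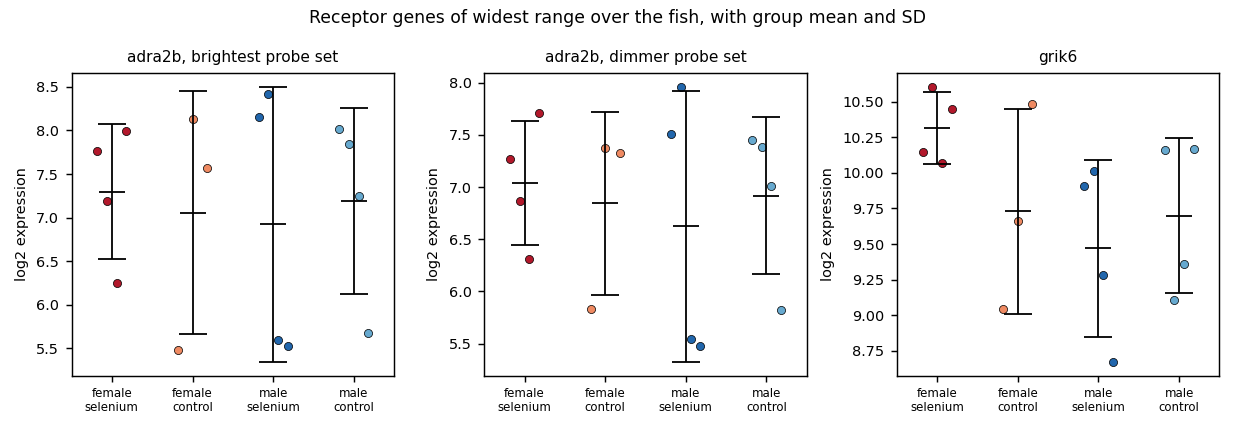
Log2 expression of both adra2b probe sets and of grik6, 1 point per fish, with group mean and SD. In adra2b the fish split into low and high levels within groups, and both probe sets place the same 4 fish at the bottom; in grik6 the 4 females on selenium lie above 10.0.

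A single fish carried many of the highest receptor values. Male 2 on selenium was the highest of the 15 fish in 13 of 29 genes (44.8%), where it was the highest in 11.4% of all probe sets and in 15.4% of those dimmer than the array-wide median. The 13 genes were gria2b, gabrb2a, gabrr2b, gabbr1a, drd3, drd2l, chrna7a, chrnb3b and all 5 adrenergic genes. In adra2c, for example, it read 6.67, against 6.18, 6.32 and 6.31 in the other males on selenium. At the other end, female 2 on selenium was the lowest in 8 of 29 genes (27.6%), beside 13.4% of all probe sets. Male 2 also had the highest retina and lens mean (7.53) and the lowest gapdh 3′ minus 5′ difference (0.66), and female 2 a gapdh difference of 1.74. The part of those measures was not tested.

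Beside glra4a, given above, the array held 4 genes of glycine receptors, the chloride channels best known from brainstem and spinal cord. The beta subunit gene glrba, whose product anchors the receptor to gephyrin, read 9.51, 9.35, 8.83 and 9.30 in females on selenium, 9.36, 9.08 and 9.17 in control females, 9.63, 9.40, 9.41 and 9.61 in males on selenium, and 9.50, 9.45, 9.44 and 9.12 in control males. Every pair of groups of the same sex or the same diet overlapped. Control females, at 9.36 or below, lay under all males on selenium, at 9.40 or above. That pair differs in both sex and diet, and the share of all probe sets without overlap in it was not computed. Of the alpha subunit genes, glra1 lay between 4.75 and 5.36 in all 15 fish, glra3 between 5.65 and 6.35, and glra4b between 5.20 and 5.85.

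Several remaining members couple to inhibitory G proteins. The M2 muscarinic gene chrm2a, a brake on acetylcholine release, read 7.22, 7.11, 7.54 and 7.28 in females on selenium, 6.92, 7.40 and 7.07 in control females, 7.12, 7.32, 7.08 and 7.19 in males on selenium, and 7.27, 7.30, 7.13 and 7.09 in control males. Every pair of groups overlapped. The serotonin receptor gene htr5ab lay between 5.44 and 6.12 in all fish, with sex differences of -0.19 on both diets (limma adjusted p = 0.460 on selenium and 0.889 on the control diet). The D2 copies drd2b and drd2l lay between 5.37 and 5.94, and the alpha-2A gene adra2a between 4.98 and 5.50.

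The nicotinic subunit genes chrna1 and chrne encode parts of the receptor at the neuromuscular junction. In chrna1 the values were 5.01, 5.02, 5.02 and 4.99 in females on selenium, 5.13, 4.68 and 4.91 in control females, 5.46, 4.98, 5.55 and 5.02 in males on selenium, and 5.20, 5.02, 4.85 and 4.84 in control males. Males 3 and 1 on selenium were the highest, and the same 2 fish had the highest means of the skeletal muscle list (7.09 and 8.98). The diet difference in males was 0.27 ± 0.14 (SE, n = 4 and 4, limma adjusted p = 0.937), and without male 1 or male 3 it was 0.21 or 0.17. All 33 measured muscle genes were higher in selenium than in control males, with a median of 1.25. With the muscle and retina means as covariates, the sex difference of chrna1 on selenium was -0.35, against -0.24 without them (limma adjusted p = 0.577 and 0.367). That fit holds both list means together and is given as a value, and the part of muscle RNA was not tested. In chrne the values lay between 3.82 and 4.80 in all fish. Its highest readings were 4.80 in control male 1, whose muscle mean was 5.93, and 4.77 in male 1 on selenium, whose muscle mean was 8.98.

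The gene gabrr2b encodes a rho subunit of GABA-gated channels, a type known from the retina. It read 6.08, 6.28, 6.03 and 6.05 in males on selenium, among whom males 2 and 4 had retina means of 7.53 and 7.01, and 6.16, 6.21, 5.81 and 6.05 in control males. Male 2 on selenium was the highest of the 15 fish in gabrr2b as in the retina list, while male 4 lay among the control males, and the part of retina RNA was not tested. In females it read 6.06, 6.05, 6.23 and 6.01 on selenium, against 6.04, 5.67 and 6.02 on the control diet. Its largest difference was 0.18 ± 0.11, for selenium over control females (limma adjusted p = 0.704). The other nicotinic members were as even: chrnb3b lay between 5.14 and 5.68, chrna7a between 4.55 and 4.96 and chrnb3a between 6.34 and 7.03.

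**Figure D5:**
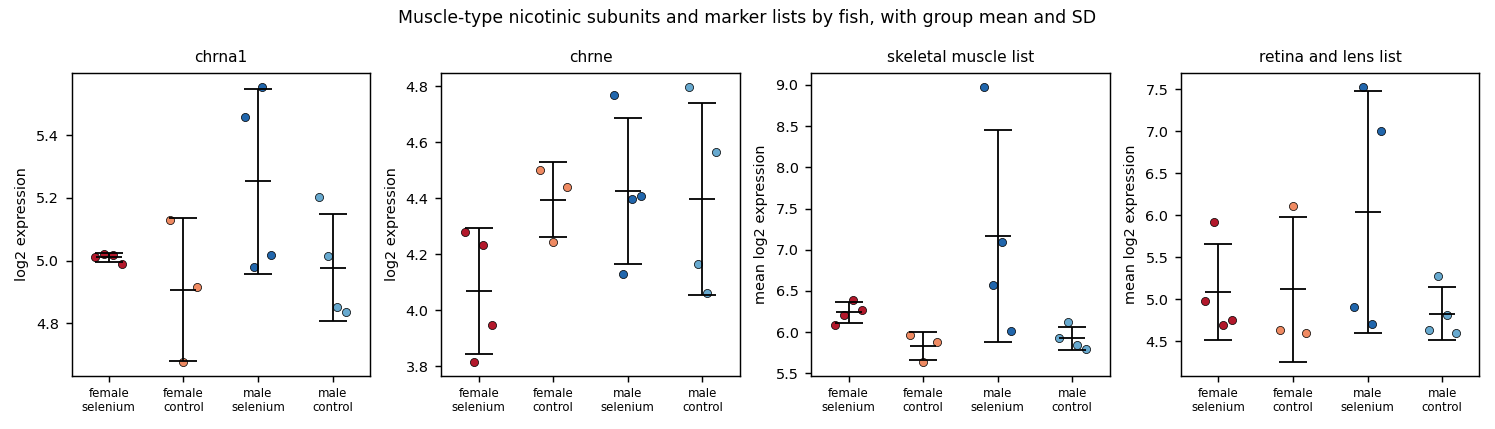
Log2 expression of the muscle-type nicotinic genes chrna1 and chrne and the mean over marker genes of skeletal muscle and of retina and lens, 1 point per fish, with group mean and SD. The muscle mean is highest in males 1 and 3 on selenium, the retina mean in males 2 and 4 on selenium, and chrna1 is highest in males 3 and 1 on selenium.

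Genes that serve the same synapses gave no call in any comparison by limma. Of 24 measured genes of transmitter synthesis, release and removal, 6 stood higher and 18 lower in selenium-fed females than in selenium-fed males, with a median of -0.06. The 6 higher genes are 25% of the list, beside 53.5% of all probe sets, and 7 genes (29.2%) had an unadjusted p under 0.05, beside 18.6% of all probe sets. The smallest p belonged to gcshb, a protein of the glycine cleavage system, at 0.45 ± 0.11 (adjusted p = 0.0657). After it came slc1a3a, a glial glutamate transporter, at 0.33 ± 0.10, slc6a3, the dopamine transporter, at -0.40 ± 0.13, and glula, a glutamine synthetase, at 0.20 ± 0.07 (adjusted p 0.109 to 0.149). In slc1a3a the control females were higher than control males by a similar 0.35 ± 0.10 (adjusted p = 0.816). In the other 4 comparisons 1 or 2 of the 24 genes had an unadjusted p under 0.05.

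Of 25 measured genes for receptor anchoring and auxiliary proteins, 11 stood higher and 14 lower in selenium-fed females than in selenium-fed males, with a median of -0.05. The gene of smallest p was dlg3, a scaffold that binds NMDA receptors, at -0.56 ± 0.19 (limma adjusted p = 0.141). It was followed by dlgap4a, a partner of such scaffolds, at -1.38 ± 0.53, the neuroligin gene nlgn4xa at -0.36 ± 0.14 and nptx1l, a neuronal pentraxin, at 0.21 ± 0.09 (adjusted p 0.186 to 0.227). An unadjusted p under 0.05 was reached by 4 of the 25 genes here (16.0%, beside 18.6% of all probe sets) and by 1 or 2 in each other comparison. The membrane protein gene grinab, kept apart from the receptors, lay between 6.22 and 7.26 in all fish, and its differences ranged from -0.13 to 0.26.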

How the data were processed

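The authors deposited log2 expression values per probe set, made with RMA and affy per the submitters' processing notes. Their versions and the set of arrays normalised together were not given in the sources used here. These log2 values were taken unchanged. Of 15617 probe sets, 115 controls were left out. A gene was read by its brightest probe set. With limma 3.58.1 (R 4.3.3), a mean for each of the 4 groups was fitted over the 15 arrays (11 residual degrees of freedom, 13.8 after moderation), two-sided, and checked on simulated data. P-values were adjusted by Benjamini-Hochberg over 15502 probe sets, and a call is an adjusted p under 0.05. Intervals are 95%. Without a batch or shared fish numbers in the labels, no block was fitted. The members, lists and tests were chosen with earlier results of these data known. Named are, in each comparison, the called genes and some of those of smallest p, not always all of the first 10. Also named are the leading gene of each class, muscle-type and retina-type receptors, genes whose probe sets disagree, and up to 4 genes of each companion list. Others were named after their values were seen: genes without overlap or with a wide range over fish, and remaining members by their range. Alternatives changed normalisation, filter, probe set choice, variance model, covariates and samples. The number of arrays limits the precision. The arrays give no depth.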

Additional observations from a re-analysis of the deposited data

Results flagged for a closer look

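In 4 of 99 groups of 4 fish (4.04%), 1 fish lay far from the rest by Dixon's test at the 95% level, about the share that chance alone gives. In gabrb2a female 2 on selenium read 11.12, against 11.19 to 11.20 in the other females on selenium. In chrnb3b male 2 on selenium read 5.68, against 5.29 to 5.34 in the other males on selenium. In glra3 control male 1 read 6.35, against 5.95 to 6.02 in the other control males, and in glrba control male 4 read 9.12, against 9.44 to 9.50.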

How the results depend on the processing

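No receptor gene was called in the sex comparison on the control diet, either diet comparison or the interaction under any alternative run. For females against males on selenium, where no gene was called by its brightest probe set, 1 was called after centring each array on its median and 1 with array weights (drd2a both times), and 2 with dim probe sets left out and 2 with an intensity trend and robust moderation (drd2a and gabbr1a). Leaving out single fish gave 0 to 1 calls: drd2a without control female 3, and gria2b without female 3 on selenium. The dimmer grin1a probe set lost its call, at -0.73 after quantile normalisation, -0.35 as the mean of both probe sets, -0.78 with the 2 groups alone, -0.81 with muscle and retina covariates, -0.54 without the 4 arrays of highest retina signal and -0.43 with the gapdh covariate. Without single fish it ranged from -0.89 to -0.65. The mean of both probe sets (-0.35) is a value of neither probe set alone. The brightest grin1a probe set turned negative without the 4 retina arrays, at -0.020. The causes were not tested.

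Over all probe sets, the 162 calls between the sexes on selenium became 283 with dim probe sets left out, 7 without the 4 retina arrays, 4 with the 2 groups alone, 1 with the gapdh covariate and 0 with muscle and retina covariates. Without single fish they ranged from 2 (male 4 on selenium) to 328 (female 3 on selenium). Centring made 134 higher and 93 lower, against 55 and 107. No paired analysis was possible because the labels give each fish a number of its own. Signals near the bottom of the array's range, as in chrne, chrna7a, glra1 and chrna1, limit what differences could be seen.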
